A study of Mus musculus with 20 samples.

Results

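Normal postnatal maturation of the mouse hippocampus was described by comparing adult with juvenile wild-type (WT) libraries of an RNA-Seq series. The comparison used 10 of the 20 samples of the series, chosen by their labels, and all genes with a mean of at least 10 normalized counts over these 10 libraries, which were 17563 of the 19258 genes with deposited values. The other 1695 genes lay below that mean. The 5 adult WT libraries came from hippocampus of male C57BL/6J mice at 4 months of age. The 5 juvenile WT libraries came from hippocampus of male C57BL/6J mice at 3 weeks, with postnatal days 22, 21, 21, 20 and 21 given for replicates 1 to 5. The other 10 libraries, labelled Adnp-HT, came from males of the same strain and ages that carried a heterozygous germline deletion of exon 5 of *Adnp*, made from the allele Adnp tm1a(KOMP)Wtsi with Protamine-Flp and Protamine-Cre mice. The juvenile libraries labelled Adnp-HT were given postnatal days 21, 22, 20, 21 and 21 for replicates 1 to 5. For replicates 3 and 5 the names of the value columns give days 21 and 20 instead. Whether the WT mice carried a recombinase transgene is not given in the sources used here. No mouse received a treatment by its labels.

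The hippocampus keeps maturing after weaning. Oligodendrocyte precursors differentiate and wrap axons in myelin, newborn granule neurons join the dentate gyrus in falling numbers, and excitatory and inhibitory synapses exchange receptor subunits as circuits settle. Oligodendrocytes make most of the cholesterol that growing myelin needs, and neurons lower their internal chloride by raising the exporter KCC2 relative to the importer NKCC1.

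Each value is a normalized count, the estimated read count of a gene divided by a size factor for its library, as the authors deposited it. The values of the 10 WT libraries summed to 31892978 to 32504088, so sequencing depth cannot be read from them and no counting error is given. Ages were compared with limma on log2(normalized count + 1), so a log2 difference is adult minus juvenile on that scale and understates the change of genes with low counts. A gene was called higher or lower when its p-value, adjusted over the 17563 genes by the Benjamini-Hochberg method, was under 0.05, and every adjusted p below is limma's. SE stands for limma's standard error of a log2 difference. Where 5 values are listed, they follow replicates 1 to 5. The labels name no library batch, so age and any batch that followed age cannot be told apart, and p-values measure the spread between these libraries, since the sources do not say how many animals each library held.

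*Adnp* (ENSMUSG00000051149, chromosome 2 of GRCm38, 168180986 to 168207112 on the minus strand), the gene targeted in the heterozygous mice, was not called between the ages in WT. Its normalized counts were 2007, 2219, 2136, 1984 and 2423 in adult WT libraries and 2235, 2197, 2204, 2187 and 2238 in juvenile WT libraries. The ranges overlapped, and the log2 difference was −0.042 (SE 0.050, limma adjusted p = 0.536, 95% interval −0.15 to 0.066). In libraries labelled Adnp-HT the counts were 2476, 2661, 2310, 2705 and 2705 in adults and 2672, 2419, 2458, 2093 and 2432 in juveniles. Their means were 1.19 and 1.09 times the WT means. A count over the whole gene cannot show whether part of it is missing from 1 copy, so it does not settle the genotype, and these are called libraries labelled Adnp-HT throughout. Of the exonic length of *Adnp*, 82.1% is shared with *Gm20716*, a readthrough gene model on the same strand, and reads could have been split between these genes.

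Markers of the hippocampus were present in all 10 WT libraries. *Prox1*, a transcription factor of dentate granule cells, ranged over 3415 to 5773 normalized counts, *Wfs1* of CA1 over 2961 to 9452, *Rgs14* of CA2 over 2148 to 2873 and *Neurod6* of pyramidal neurons over 5191 to 6544. Markers of neighbouring regions were not absent either. *Drd1*, *Drd2* and *Adora2a* of striatal neurons ranged over 49.8 to 144, 54.7 to 83.6 and 55.5 to 98.5, and *Tnnt1* of thalamus over 12.4 to 71.0. None of *Drd1*, *Drd2* and *Adora2a* was called, while *Tnnt1* was called higher in adults (log2 difference 0.95, SE 0.33, limma adjusted p = 0.0337), a call that 8 of the alternatives ended, among them quantile normalization, the *Ttr* covariate described next and leaving out juvenile WT 3.

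Juvenile WT 3 stood apart from the other juvenile libraries. For 114 genes its value was at least 2 times that of every other juvenile WT library, against 14 to 30 such genes in each of the other juveniles and 16 to 37 in each adult among adults. The genes that set it apart were headed by transcripts of the choroid plexus, the tissue in the ventricles that secretes cerebrospinal fluid. Its *Ttr* count was 57648, while the other juveniles had 136, 93.4, 13.8 and 89.2. Of the 114 genes, 91 were called higher in adults and 0 lower, beside 19.7% and 19.9% of all genes tested. On the first principal component, which carried 47.3% of the variance and separated the ages, juvenile WT 3 lay at 17.6, between the other juveniles (36.0 to 43.5) and the adults (−45.0 to −25.1). The second component (9.79%) placed it at −41.2, while the other 9 libraries lay at −8.88 or above. The number of genes called, counts of some lists, and *Ttr*, *Kl*, *Folr1*, *Otx2* and *Kcnj13* are given with and without this library. Differences of other genes in which it stood apart are given with it only. As a further alternative, chosen after seeing the data, log2 *Ttr* entered the fit as a covariate. Because *Ttr* itself differed between the ages, this term takes up much of the age difference and left 2301 called genes, so counts with it are given beside the lists below.

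Of the 17563 genes tested, 6956 (39.6%) were called, 3461 (19.7%) higher and 3495 (19.9%) lower in adults. These shares stand for all genes beside each list below, where no list was tested. Most of these differences were small. The median absolute log2 difference of the called genes was 0.32, and 76.7% of them were under 1.5-fold. Changes of more than 2-fold were called for 452 higher and 234 lower genes, and of more than 4-fold for 139 and 41. The adult values lay entirely above the juvenile values for 2191 genes (12.5%) and entirely below for 2547 (14.5%). Without juvenile WT 3, 6444 genes were called. The median log2 difference over all genes tested was 0.01, and 90% of genes lay between −0.56 and 0.72. Among 14946 protein-coding genes 3141 were called higher and 3284 lower, and among 554 long intergenic noncoding RNAs 85 and 59. The median log2 difference changed little with exonic length, from 0.032 in the shortest 20% of the genes to −0.0085 in the longest 20%.

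**Figure D1:**
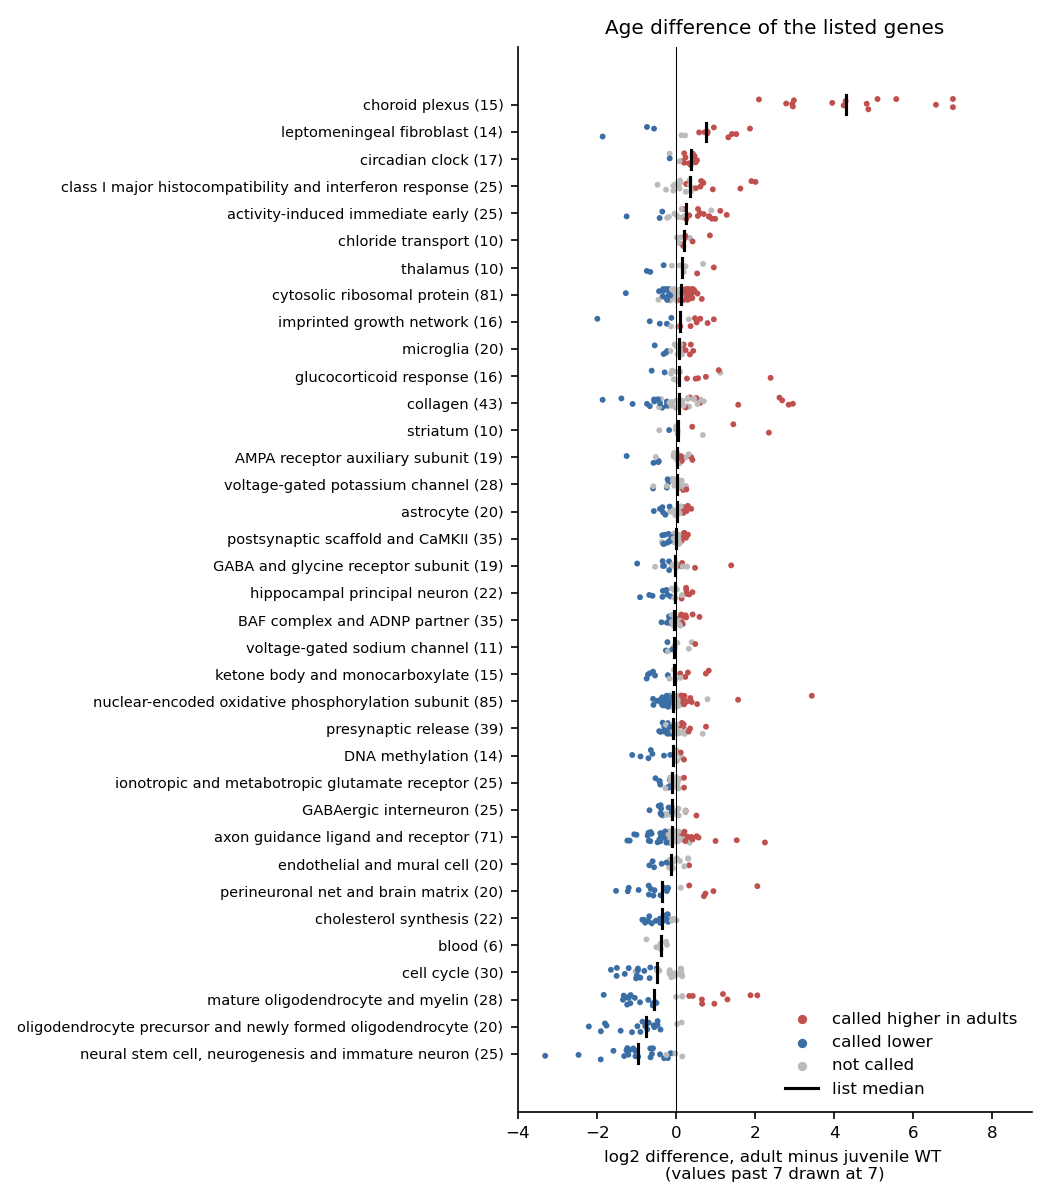
Age difference of the genes of 36 lists, on the log2 scale, adult minus juvenile WT, with the number of genes tested in parentheses. Each point is a gene, red where called higher, blue where called lower and grey where not called, and the black bar is the list median, which runs from 4.29 for choroid plexus to −0.96 for neurogenesis and immature neurons.

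Oligodendrocyte genes were mostly lower in adults, from precursors to the major myelin proteins. Of 20 genes of oligodendrocyte precursors and newly formed oligodendrocytes, 18 were called lower in adults and 0 higher, where 19.9% and 19.7% of all genes were. All 18 had adult values entirely below the juvenile values, as 14.5% of all genes did. The median log2 difference of the list was −0.78, beside 0.01 over all genes, and 18 were called lower with the *Ttr* covariate as well. In bulk tissue, fewer cells of a type and less RNA per cell cannot be told apart. *Gpr17* (ENSMUSG00000052229), a receptor of oligodendrocytes that are starting to differentiate, had 1871, 1593, 1494, 1458 and 1528 normalized counts in adults and 5985, 6261, 5626, 6183 and 5608 in juveniles. The lowest juvenile value was about 3 times the highest adult value, and *Gpr17* fell by 1.90 on the log2 scale (SE 0.062, limma adjusted p = 1.56e-09). *Enpp6* (ENSMUSG00000038173, chromosome 8 of GRCm38, 46986887 to 47096762 on the plus strand), a choline phosphodiesterase of newly forming oligodendrocytes, had 246, 258, 249.7, 244 and 197 in adults and 1291, 1068, 1078, 995 and 1105 in juveniles. Adults and juveniles were again fully apart (log2 difference −2.21, SE 0.085, limma adjusted p = 4.92e-09). *Pdgfra*, the receptor for the growth factor that keeps precursors dividing, had 2003, 1882, 1873, 2042 and 2111 in adults and 2771, 2690, 2976, 3029 and 3056 in juveniles, without overlap (log2 difference −0.55, SE 0.048, limma adjusted p = 2.63e-06). *Cspg4* differed by −0.47, *Bmp4* by −0.98, *Neu4* by −1.12 and *Kif19a*, a kinesin, by −1.80. The 2 genes of the list that were not called were *Bcas1* (0.022) and *Tcf7l2* (0.14), both of oligodendrocytes passing through differentiation.

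The 28 genes of mature oligodendrocytes and myelin moved both ways, with 16 called lower, 9 higher and a median of −0.56. With the *Ttr* covariate 16 were called lower and 5 higher. *Mbp*, myelin basic protein, had 86085, 75505, 63076, 73123 and 66662 normalized counts in adults and 160914, 139459, 135222, 116510 and 134601 in juveniles and fell by 0.91 (SE 0.087, limma adjusted p = 5.92e-06). Per kb of exonic length, *Mbp* was the most abundant gene of the list, at 8607 in adults and 16217 in juveniles. *Ugt8a*, the enzyme that makes the myelin lipid galactosylceramide, fell most (−1.83), from 5314 ± 449 to 1495 ± 174 (SD, n = 5 each). *Mag*, *Mog*, *Cnp* and *Tspan2* differed by −1.15, −1.04, −1.24 and −1.35, and *Nipal4*, a magnesium transporter, by −1.33. *Mobp* was lower too (log2 difference −0.59, SE 0.12, limma adjusted p = 0.00158), but its adult value in replicate 1 lay above its juvenile value in replicate 4.

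Against this fall stood 9 genes of the same list that rose, and which cells carried their rise was not tested. *Hapln2*, a link protein of the matrix at nodes of Ranvier, had 909, 821, 632, 707 and 540 in adults and 236, 248, 178, 72.6 and 188 in juveniles. The lowest adult value was more than 2 times the highest juvenile value (log2 difference 2.05, SE 0.28, limma adjusted p = 8.82e-05). *Apod*, a lipid carrier, had 5233, 3679, 3729, 3901 and 3676 in adults and 1719, 1628, 1743, 1144 and 2057 in juveniles, also without overlap, and a ratio of means of 2.44 (limma adjusted p = 1.34e-05). *Qdpr*, which regenerates tetrahydrobiopterin, rose by 1.18 (SE 0.062, limma adjusted p = 4.09e-08), *Trf*, the iron carrier transferrin, by 0.97, *Car2*, carbonic anhydrase, by 0.66, and *Klk6*, a protease, by 1.88 from single-digit counts. The calls of *Trf* and *Klk6* were lost with the *Ttr* covariate. *Myrf*, the transcription factor that drives myelin genes, was not called (−0.00032, 95% interval −0.16 to 0.15), nor were *Ermn* (0.15) and *Aspa* (0.16). The list summed to 234896, 206638, 179298, 203123 and 181530 normalized counts in adults and 421098, 365322, 360978, 294480 and 355640 in juveniles.

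**Figure D2:**
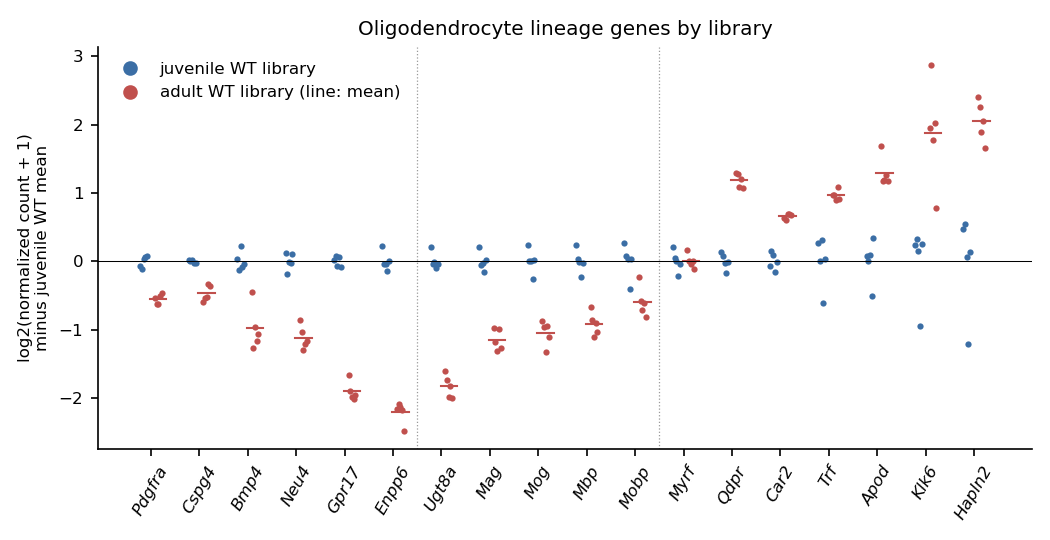
Oligodendrocyte lineage genes in each library as log2(normalized count + 1) minus the mean of the juvenile WT libraries, blue for juvenile and red for adult libraries, with a line at the adult mean. Dotted lines part 6 precursor and newly formed genes, all of those drawn below 0 in adults, from myelin genes that fell and from *Myrf* and the 6 genes that rose, such as *Hapln2* (2.05).

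Genes of cholesterol synthesis fell together. Of 22 genes, 18 were called lower and 0 higher, with a median log2 difference of −0.37, and 17 had no overlap between the ages. The *Ttr* covariate left 9 of them called. *Hmgcs1*, an early enzyme of the pathway, had 6104, 6555, 6082, 5956 and 6643 normalized counts in adults and 11801, 11614, 10499, 11918 and 10915 in juveniles. No adult library reached a juvenile one (log2 difference −0.86, SE 0.043, limma adjusted p = 3.33e-08). *Sqle*, *Mvd* and *Idi1*, later steps of the pathway, differed by −0.52, −0.81 and −0.68. Among genes not called were *Insig1* (−0.069), *Srebf2* (0.0094) and *Tm7sf2* (−0.11). *Srebf2* encodes the transcription factor of the pathway.

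Transcripts of neurogenesis were far lower in adults. Of 25 genes of neural stem cells, neurogenesis and immature neurons, 21 were called lower, 0 higher, and the median was −0.96. The *Ttr* covariate left 16 called lower, and without adult WT 3 there was 1 called higher. *Igfbpl1* (ENSMUSG00000035551, chromosome 4 of GRCm38, 45809468 to 45826923 on the minus strand), a secreted protein of newborn neurons, had 67.2, 51.4, 44.5, 69.0 and 74.2 normalized counts in adults and 604, 513, 657, 707 and 573 in juveniles. Juvenile values were about an order of magnitude above adult values (log2 difference −3.31, SE 0.14, limma adjusted p = 1.07e-08). *Dcx*, the microtubule protein of migrating young neurons, had 831, 852, 774, 961 and 938 in adults and 2024, 1943, 2155, 2579 and 2162 in juveniles. *Dcx* thus fell by 1.31 (SE 0.078, limma adjusted p = 1.20e-07) without overlap. *Eomes*, a transcription factor of intermediate progenitors, fell by 1.91 from 59.4 ± 13.1 to 15.6 ± 6.16 (SD, n = 5 each). *Draxin*, a secreted repellent of axons, fell by 2.47 (SE 0.13, limma adjusted p = 4.13e-08), *Sox11* by 0.96 and *Sox4* by 1.04. *Tubb3*, a neuronal tubulin and per kb the most abundant gene of the list, fell by 0.59. *Nes* (−0.25), *Gap43* (−0.021) and *Stmn1* (0.16) were not called.

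Genes of the cell cycle were at low counts, and part of them fell. Of 30 genes, 14 were called lower and 0 higher, with a median of −0.49. Among genes with a mean of at least 100 alone, 2 were called lower and 1, *Mcm6*, higher, and *Mcm6* was also called higher without the trend of limma. With the *Ttr* covariate 6 were called lower and 1 higher, and *Rrm2* below lost its call. *Top2a*, which untangles chromosomes before division, had 31.8, 33.8, 62.9, 44.8 and 35.9 normalized counts in adults and 114, 115, 114, 161 and 149.7 in juveniles. The highest adult value, in replicate 3, was still below the lowest juvenile value (log2 difference −1.65, SE 0.19, limma adjusted p = 2.64e-05). *Mki67*, a marker of dividing cells, had 127, 126, 123, 93.6 and 119 in adults and 189.5, 251, 267, 220.5 and 267 in juveniles (log2 difference −1.01, SE 0.12, limma adjusted p = 3.35e-05). *Cenpf*, *Ccnb1* and *Rrm2* differed by −1.51, −1.50 and −1.30. *Rrm2* supplies DNA replication, while *Pcna* (−0.059, limma adjusted p = 0.280) and *Mcm2*, *Mcm3*, *Mcm5*, *Mcm6* and *Mcm7* (between −0.16 and 0.15), also of replication, were not called.

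The promoters of the genes of this list were searched for motifs of cell cycle control. Promoters of 300 bases, 250 before and 50 after the transcription start, were taken from RefSeq on GRCm38.p6, where 12 of the 14 genes called lower had an entry and gave 13 promoters. The letters of the cell cycle homology region (CHR), TTTGAA or TTCGAA on either strand, were in 10 of the 13 (76.9%), beside 19.2% of 32851 promoters of all genes. CCAAT was in 12 (92.3%, all promoters 37.4%), and the E2F letters TTTCCCGC or TTTGGCGC in 0 (all promoters 1.56%). Among the 16 genes of the list that were not called, 12 had an entry and gave 13 promoters, of which 5 held the CHR letters (38.5%), 11 CCAAT (84.6%) and 4 the E2F letters (30.8%), the last all of *Mcm3*, *Mcm5*, *Mcm6* and *Mcm7*. These matches describe letters in a window and were not tested. The promoters of *Top2a* (chr11:99024140-99024439, minus strand), *Mki67* (chr7:135716330-135716629, minus strand) and *Ccnb1* (chr13:100786437-100786736, minus strand) are shown 5′ to 3′ as examples with and without the CHR letters, with CHR and CCAAT matches on either strand in capitals.
Top2a: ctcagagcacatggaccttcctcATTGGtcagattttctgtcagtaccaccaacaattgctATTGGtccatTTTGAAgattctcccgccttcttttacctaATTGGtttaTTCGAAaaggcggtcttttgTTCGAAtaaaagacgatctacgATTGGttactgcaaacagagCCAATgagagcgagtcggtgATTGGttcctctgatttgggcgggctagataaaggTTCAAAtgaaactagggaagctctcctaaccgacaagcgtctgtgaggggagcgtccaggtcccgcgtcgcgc
Mki67: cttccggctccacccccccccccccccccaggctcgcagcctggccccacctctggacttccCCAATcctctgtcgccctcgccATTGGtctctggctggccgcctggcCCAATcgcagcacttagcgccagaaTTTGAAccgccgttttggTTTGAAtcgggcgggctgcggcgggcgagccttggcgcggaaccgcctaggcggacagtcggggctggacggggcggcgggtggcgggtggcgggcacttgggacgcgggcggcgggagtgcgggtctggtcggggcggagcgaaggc
Ccnb1: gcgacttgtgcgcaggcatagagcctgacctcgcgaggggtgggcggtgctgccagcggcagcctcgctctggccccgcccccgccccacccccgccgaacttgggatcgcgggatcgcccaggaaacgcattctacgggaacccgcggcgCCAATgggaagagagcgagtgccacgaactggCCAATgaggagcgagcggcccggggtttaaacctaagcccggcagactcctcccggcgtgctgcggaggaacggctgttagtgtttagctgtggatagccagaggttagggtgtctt
The window of *Ccnb1* held CCAAT at 2 places and no CHR letters. Of the cholesterol genes called lower, 13 had an entry and gave 16 promoters, of which 13 held CCAAT (81.2%).

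Glutamate receptor genes changed little in size. Of 25 genes for ionotropic and metabotropic glutamate receptors, 10 were called lower and 2 higher, with a median of −0.11, and with the *Ttr* covariate 1 was called lower and 0 higher. The NMDA receptor subunits of young and mature synapses, *Grin2b* and *Grin2a*, were not called. *Grin2a* had 12891, 13005, 13187, 13137 and 12272 normalized counts in adults and 11983, 13184, 13003, 12470 and 12750 in juveniles. *Grin2b* had 26341, 26354, 28729, 28733 and 29009 in adults and 25298, 27893, 27463, 28983 and 25953 in juveniles. Both overlapped between the ages, with 95% intervals of the log2 difference of −0.044 to 0.095 for *Grin2a* and −0.055 to 0.13 for *Grin2b*. *Grin2d* had 494, 487, 444, 511 and 496 in adults and 646, 564, 620.1, 741 and 684 in juveniles (log2 difference −0.42, SE 0.073, limma adjusted p = 6.00e-04). *Grin3a* differed by −0.42 and *Grik1*, a kainate receptor, by −0.52, and the calls of all 3 were lost with the *Ttr* covariate. Among AMPA receptor subunits *Gria2*, which makes the channel impermeable to calcium, fell by 0.16 (SE 0.025, limma adjusted p = 2.26e-04). *Gria1* was not called at −0.0038 (95% interval −0.065 to 0.057), and with quantile normalization between libraries its difference was 0.09 and called higher.

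Of 19 genes for auxiliary subunits of AMPA receptors and related proteins 5 were called higher and 5 lower (median 0.031), of 35 genes for scaffolds and CaMKII 6 and 10 (−0.0025), and of 39 presynaptic genes 8 and 14 (−0.075), where 19.7% and 19.9% of all genes were, so that several of these shares were near those of all genes. With the *Ttr* covariate the counts were 1 and 4, 4 and 3, and 7 and 6. *Nptx2*, a secreted pentraxin that clusters AMPA receptors, had 581, 659, 586, 639.8 and 576 normalized counts in adults and 1385, 1282, 1502, 1556 and 1539 in juveniles. Juvenile values were about 2 times the adult ones and did not overlap (log2 difference −1.25, SE 0.063, limma adjusted p = 3.33e-08). *Cacng4*, an auxiliary subunit, and *Neto2*, of kainate receptors, fell by 0.57 and 0.45, while *Cacng7* rose by 0.38, *Frrs1l* by 0.14 and *Shisa7* by 0.12, and *Cacng8* (−0.055) and *Cnih2* (−0.012) were not called. *Camk2a*, the alpha subunit of CaMKII, had 128416, 129578, 129358, 123074 and 130804 in adults and 109970, 119002, 121032, 118060 and 114047 in juveniles (log2 difference 0.14, SE 0.031, limma adjusted p = 0.00323). Its adult values all lay above the juvenile ones, but with quantile normalization its difference was −0.07, so its direction depends on the scaling. *Camk2b* was not called (0.0029, 95% interval −0.053 to 0.059). *Shank1* rose by 0.30, *Dlg4*, which encodes PSD-95, fell by 0.19, *Dlgap4* and *Iqsec2* rose by 0.25 and 0.19, *Dlg2* fell by 0.29, *Nrgn* was not called (0.081), and the adhesion genes *Nlgn1* and *Nlgn3* fell by 0.30 and 0.33. Of *Nlgn3*, 41.2% of the exonic length is shared with *Gm21986* on the same strand. At the release site *Vamp2* rose by 0.35, *Cplx2* by 0.19, *Vamp1* by 0.32 and *Rims3* by 0.75, while *Sv2b*, *Stx1a* and the transporter *Slc17a7* fell by 0.30, 0.34 and 0.22. *Slc32a1*, the vesicular GABA transporter, fell by 0.39, with 24.9% of its exonic length opposite *Gm14205*, and *Syn1* was not called (0.035). With the *Ttr* covariate the calls of *Camk2a*, *Nlgn1*, *Iqsec2*, *Frrs1l*, *Shisa7*, *Stx1a* and *Slc32a1* were lost.

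**Figure D3:**
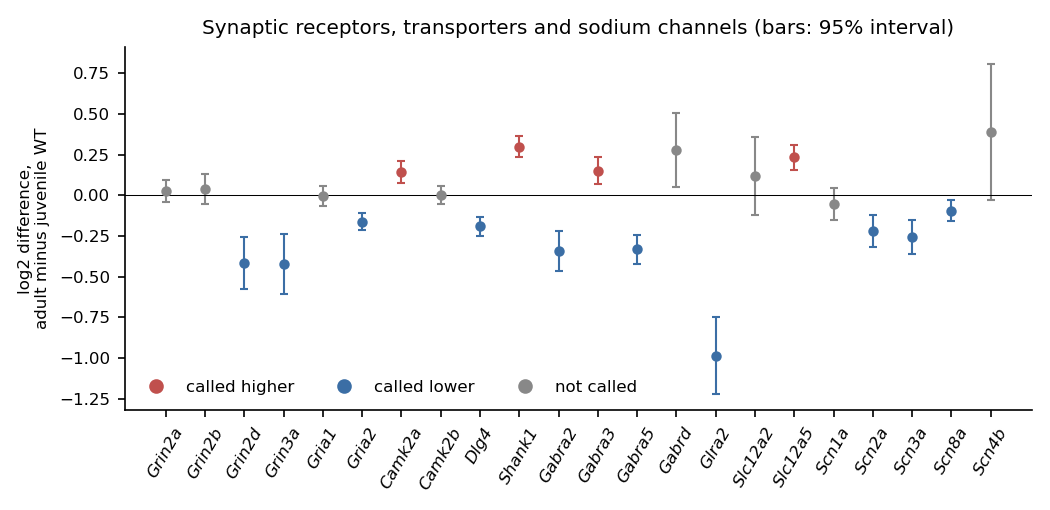
Log2 difference, adult minus juvenile WT, of receptor subunits, scaffolds, chloride transporters and sodium channels, with bars for the 95% interval and colours for the call. *Glra2* (−0.99) is lowest, while *Grin2a*, *Grin2b*, *Gria1* and *Camk2b* have intervals that hold 0, though *Camk2a* and *Gria1* change sign under quantile normalization.

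Of 10 chloride transport genes 6 were called higher, 0 lower and 4 not (median 0.21), and 2 higher with the *Ttr* covariate. *Slc12a5*, which encodes KCC2, had 18789, 19119, 16823, 18056 and 17585 normalized counts in adults and 15343, 15421, 14981, 15210 and 15857 in juveniles. Adult values all lay above juvenile values (log2 difference 0.23, SE 0.035, limma adjusted p = 2.07e-04). *Slc12a2*, which encodes NKCC1, had 3168, 2943, 4465, 3699 and 3324 in adults and 3486, 3023, 3927, 2785 and 2952 in juveniles, with overlap, and was not called (log2 difference 0.12, SE 0.11, limma adjusted p = 0.433). It is also expressed in choroid plexus, and both adult WT 3 and juvenile WT 3, which had the highest *Ttr* of their ages, had the highest *Slc12a2*. *Slc12a7*, another cotransporter, and *Oxsr1*, a kinase that controls them, rose by 0.85 and 0.24, calls that the covariate ended. Of 19 GABA and glycine receptor genes 4 were called higher and 6 lower (21.1% and 31.6%, beside 19.7% and 19.9% of all genes, median −0.026), and 0 and 2 with the covariate. Without adult WT 4, adult WT 5 or juvenile WT 2, 2 were called higher. *Glra2*, the glycine receptor subunit of immature neurons, had 187, 226, 207, 246 and 242 in adults and 393, 378, 451, 549 and 438 in juveniles. It fell by 0.99 without overlap (SE 0.11, limma adjusted p = 1.92e-05). *Gabra2* and *Gabra5* fell by 0.34 and 0.33 and *Gabra3* rose by 0.15. *Gabrd* (0.28, 95% interval 0.049 to 0.51) was not called, nor was *Gabbr1* (−0.0015). The calls of *Gabra2* and *Gabra3* were lost with the *Ttr* covariate, and that of *Gabra3* also in a single fit of all 20 libraries. *Gabrd* was called higher under 5 alternatives, such as leaving out juvenile WT 3.

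Of 25 genes of GABAergic interneurons 9 were called lower and 2 higher (median −0.11), and 2 and 2 with the covariate. *Sst*, the peptide somatostatin, had 4012, 4358, 4082, 4407 and 4595 normalized counts in adults and 5863, 5459, 5597, 6255 and 5955 in juveniles. The highest adult value was below the lowest juvenile value (log2 difference −0.44, SE 0.046, limma adjusted p = 1.21e-05). *Reln*, the matrix protein of Cajal-Retzius cells and interneurons, fell by 0.67 and *Gad2*, one of the enzymes that make GABA, by 0.38, *Nxph1*, a neurexin ligand, fell by 0.39, while *Gad1* was not called (−0.11). *Pvalb*, the calcium buffer of fast-spiking interneurons, had 782, 608, 493, 507 and 527 in adults and 501, 519, 502, 453 and 473 in juveniles. Its adult replicates 1 and 2 were highest, the rest overlapped, and it was not called (0.23, limma adjusted p = 0.111). *Nos1* rose by 0.51 and the potassium channel *Kcnc1* by 0.24. Of 11 voltage-gated sodium channel genes 4 were called lower and 1 higher (median −0.053), with 0 and 1 under the covariate. Without juvenile WT 3 it was 4 lower and 0 higher, and 0 were higher without adult WT 4, adult WT 5 or juvenile WT 4, with quantile normalization, with the replicate block and without the trend of limma as well. *Scn3a*, a channel of early development, fell by 0.26, *Scn2a* by 0.22, *Scn3b* by 0.21 and *Scn8a* by 0.096, while *Scn1a* (−0.053) and *Scn4b* (0.39) were not called. Of 28 potassium channel genes 4 were called in each direction (14.3%, below the 19.7% and 19.9% of all genes, median 0.018), among them *Kcng4* (−0.58), *Kcnd2* (−0.24) and *Kcnc2* (−0.19), with 2 in each under the covariate. *Reln*, *Gad2*, *Scn2a*, *Scn3a*, *Scn3b*, *Scn8a* and *Kcnc2* lost their calls with the covariate, and *Scn8a* also without the mean-variance trend of limma and without each of 4 libraries in turn. *Pvalb* was called higher and *Gad1* lower in a single fit of all 20 libraries.

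Genes of axon guidance fell more often than they rose. Of 71 genes for ligands and receptors 25 were called lower and 13 higher, with a median of −0.11, and 16 and 4 with the *Ttr* covariate. *Sema6a*, a transmembrane semaphorin, had 733, 720.3, 686, 841 and 792 normalized counts in adults and 1848, 1738, 1739, 1783 and 1756 in juveniles. The ages were more than 2-fold apart in every pair of libraries (log2 difference −1.24, SE 0.054, limma adjusted p = 1.20e-08). *Sema3c* and *Sema4d* fell by 1.18 and 1.06. *Ntng1*, an adhesion ligand, rose by 0.52, *Epha10* by 0.57 and *Ntn5*, of which 23.4% lies opposite *Sec1*, by 1.53. *Slit1*, per kb the most abundant gene of the list, rose by 0.20, though not with the covariate.

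Genes of perineuronal nets and brain matrix were mostly lower. Of 20 genes 13 were called lower and 5 higher (median −0.35), and 7 and 3 with the covariate. *Tnc*, the matrix protein tenascin-C, had 121, 136, 181, 187 and 203 normalized counts in adults and 395, 648, 370.3, 556 and 429.5 in juveniles, without overlap (log2 difference −1.52, SE 0.17, limma adjusted p = 2.58e-05). The proteoglycans *Ncan* and *Acan* fell by 0.58 and 0.55 and the protease *Adamts4*, which cleaves them, by 1.20. *Hapln4*, the link protein of nets around inhibitory synapses, had 3963, 4148, 3928, 3600 and 3951 in adults and 2135, 2371, 2053, 1722 and 1957 in juveniles. Adult values were nearly 2 times the juvenile ones (log2 difference 0.94, SE 0.070, limma adjusted p = 7.76e-07). *Hapln1*, the link protein of younger matrix, fell by 0.95 (SE 0.089, limma adjusted p = 4.96e-06). *Has2*, which makes hyaluronan, fell by 1.22, *Timp3*, of which 21.3% lies opposite *Syn3*, rose by 0.74, and *Timp2* was not called (0.12). Of 43 collagen genes 12 were called lower and 9 higher (27.9% and 20.9%, near the 19.9% and 19.7% of all genes, median 0.067), and 4 and 1 with the covariate. Fibrillar *Col3a1* and *Col1a1* fell by 1.86 and 0.74, *Col15a1* by 1.39 and basement membrane *Col4a2* by 0.24, and *Col9a1* was called lower at a ratio of means of 0.439. *Col27a1* and *Col16a1* rose by 0.51 and 0.35. The largest increases, *Col8a1* (2.95), *Col17a1* (2.85), *Col8a2* (2.68) and *Col4a3* (2.61), were not called with the *Ttr* covariate, nor were *Col27a1*, *Col16a1*, *Col9a1*, *Col4a2*, *Has2* and *Acan*. Juvenile WT 3 was far above the other juveniles in *Col8a1*, *Col8a2* and *Col4a3*, whose differences are given with this library only.

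Immediate early genes, which neurons switch on within minutes of activity, were mostly higher in adults. Of 25 genes 13 were called higher and 3 lower (median 0.26), and 11 and 1 with the *Ttr* covariate. Without adult WT 3, 5 were called lower. *Fos* had 843, 744, 498, 553 and 681 normalized counts in adults and 246, 367, 191, 189 and 428 in juveniles. Replicates 2 and 5 were the highest juveniles, and no juvenile reached the lowest adult (log2 difference 1.28, SE 0.22, limma adjusted p = 6.42e-04). *Arc* had 8084, 7938, 7351, 6545 and 7408 in adults and 3854, 5177, 2860, 3081 and 4253 in juveniles (log2 difference 0.99, SE 0.13, limma adjusted p = 8.33e-05). *Npas4* rose by 0.90 with overlap in juvenile replicate 5, *Fosb* by 1.12 and *Egr1* by 0.55. *Nptx2*, *Bdnf* and *Homer1*, which activity also induces, fell by 1.25, 0.42 and 0.35, and *Bdnf* and *Homer1* lost their calls with the covariate. The time between removal from the cage and dissection is not given in the sources used here, and its part in these differences was not tested. Of the genes called higher 10 had a promoter entry, and 2 promoters (20%), those of *Btg2* and *Dusp1*, held the CRE letters TGACGTCA, beside 1.79% of all promoters. Over all genes of the list these were 2 of 32 promoters (6.25%). *Btg2* was not called with the covariate.

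Clock genes moved the same way. Of 17 circadian genes 14 were called higher and 1 lower (median 0.36), and 4 and 0 with the covariate. Leaving out adult WT 1 or juvenile WT 4 gave 2 lower. *Per1* had 3307, 3517, 3416, 3118 and 3298 normalized counts in adults and 2623, 2531, 2062, 2239 and 2427 in juveniles, without overlap (log2 difference 0.49, SE 0.060, limma adjusted p = 4.35e-05). *Hlf*, *Bhlhe40*, *Cry1* and *Dbp* rose by 0.52, 0.51, 0.45 and 0.42, and *Tef* by 0.20. *Clock* fell by 0.16, and *Arntl*, its partner, was not called (−0.17). *Hlf*, *Cry1*, *Dbp* and *Clock* lost their calls with the covariate, and *Dbp* also without the trend of limma and without each of 6 libraries in turn. The hour of dissection is not given in the sources used here, so age and hour cannot be told apart. Of 16 glucocorticoid-responsive genes 6 were called higher and 2 lower (median 0.069), and 4 and 0 with the covariate. *Sgk1*, a kinase induced by corticosteroids, had 3964, 4715, 5302, 2420 and 3420 in adults and 2006, 1781, 1843, 1513 and 1964 in juveniles (log2 difference 1.08, SE 0.17, limma adjusted p = 2.62e-04). *Plin4*, a lipid droplet protein, rose by 2.39, while *Mt1* (−0.13) was not called and *Ddit4* and *Cdkn1a* fell by 0.29 and 0.62, calls that the covariate ended.

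Antigen presentation genes were higher in adults or not called. Of 25 genes of class I major histocompatibility and interferon response 11 were called higher and 0 lower (median 0.34), and 5 and 0 with the covariate. *Cd74*, the invariant chain that loads class II molecules, had 169, 129.5, 226, 169 and 181 normalized counts in adults and 48.5, 39.4, 53.1, 38.1 and 49.1 in juveniles. Every adult value was more than 2 times every juvenile value (log2 difference 1.90, SE 0.15, limma adjusted p = 1.45e-06). Class II *H2-Aa* and *H2-Ab1* rose by 2.01 and 1.62, and class I *H2-K1* by 0.69 (SE 0.14, limma adjusted p = 0.00158) and *B2m* by 0.26, while *H2-D1* was not called (0.24). Because genes of this family share sequence, their reads may be assigned to the wrong member. *H2-K1*, *H2-Ab1* and *B2m* lost their calls with the covariate, and *H2-D1* was called higher without juvenile WT 5. *C4b*, a complement component, had 1730, 1210, 1553, 1294 and 1278 in adults and 524, 644, 599.7, 459.7 and 919 in juveniles (log2 difference 1.19, SE 0.16, limma adjusted p = 7.69e-05). The interferon-induced genes *Ifit1*, *Isg15* and *Irf7* were not called (0.061, −0.26 and −0.47).

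Of 20 microglial genes 6 were called higher and 4 lower (30% and 20%, beside 19.7% and 19.9% of all genes, median 0.080), with the lysosomal protease *Ctss* up by 0.43 and the complement gene *C1qa* by 0.35, and *Cx3cr1* and *P2ry12*, receptors of resting microglia, down by 0.23 and 0.26. *Tyrobp* was called higher (0.37), *Fcrls* was called lower (−0.54), and *Tmem119* was not called (0.073). Of 20 astrocyte genes 6 were called each way (30%, median 0.0085). *Slc1a2*, the main glutamate transporter, had 96694, 96531, 81962, 90099 and 94541 normalized counts in adults and 111370, 115203, 115350, 123980 and 118646 in juveniles, without overlap (log2 difference −0.35, SE 0.046, limma adjusted p = 7.57e-05). *Aqp4* and *Gja1* fell by 0.33 and 0.27 and *Agt* by 0.56, *Sox9*, *Ndrg2*, *Clu* and *Glul* rose by 0.38, 0.26, 0.18 and 0.12, and *Gfap* (0.12) and *Aldh1l1* (−0.12) were not called. Of 20 endothelial and mural genes 6 were called lower and 1 higher (30% and 5%, median −0.13), with the tight junction gene *Cldn5* at −0.60, the mural genes *Kcnj8* and *Rgs5* at −0.56 and −0.37 and the receptor *Flt1* at 0.33, while *Pecam1* (−0.073) and the glucose transporter *Slc2a1* (0.20) were not called. With the *Ttr* covariate the microglial, astrocyte and vascular lists had 2, 1 and 0 genes called higher and 0, 5 and 4 lower, and *Cx3cr1*, *P2ry12*, *Fcrls*, *Tyrobp*, *Sox9*, *Clu*, *Glul* and *Flt1* lost their calls. The call of *Glul* was also lost without the trend of limma, in a single fit of all 20 libraries and without each of 7 libraries in turn. Of 22 genes of hippocampal principal neurons 6 were called higher and 8 lower (median −0.036, and 2 and 5 with the covariate). *Prox1* had 3583, 3832, 3415, 3516 and 3800 in adults and 5064, 5773, 5451, 5583 and 5613 in juveniles and fell by 0.60 (SE 0.043, limma adjusted p = 5.79e-07), while *C1ql2* and *Dsp* of mature granule cells rose by 0.41 and 0.25. *Iyd* fell by 0.91, *Mpped1* rose by 0.26 and *Fibcd1* of CA1 was not called (−0.11). The log2 difference of *Wfs1*, also of CA1, was −0.68, that of *Rgs14* of CA2 0.25 and that of *Neurod6* −0.25. *Dsp* lost its call with the covariate and in a single fit of all 20 libraries. Of 10 thalamic genes 2 were called higher and 3 lower (median 0.14), among them *Plekhg1* (−0.74), *Prkcd* (−0.32) and *Synpo2* (0.53), and *Lhx9* was not called (0.24). Leaving out juvenile WT 3 gave 1 thalamic gene higher and 2 lower, and 1 was higher without adult WT 2, 3 or 4 or juvenile WT 1 or 4. Of 10 striatal genes 3 were called higher and 1 lower (median 0.038), with *Ppp1r1b*, which encodes DARPP-32, up by 1.45. The lower call was lost without adult WT 5, juvenile WT 2 or juvenile WT 4 and without the trend of limma. The thalamic genes summed to 4892, 4932, 4585, 4725 and 4296 in adults and 5409, 5246, 5679, 5683 and 6011 in juveniles, most abundant per kb being *Calb2*, and the striatal genes to 6177, 6234, 6776, 6427 and 6049 and 4846, 5285, 5295, 5133 and 4992, most abundant being *Ppp1r1b*. With the covariate, which ended the calls of *Prkcd* and *Synpo2*, 1 thalamic gene was called lower and 2 striatal genes higher. The call of *Prkcd* was also lost without each of 4 libraries in turn. Of 10 blood genes 6 had values, of which 0 were called (median −0.39), but 3 were called lower without adult WT 3. They summed to 10588, 6491, 27484, 9441 and 7735 in adults and 13582, 18455, 14716, 6417 and 18903 in juveniles, most of it hemoglobin *Hbb-bs*, *Hba-a1* and *Hba-a2*. *Alas2* of red cell precursors was not called (−0.40). No gene of these lists was at 0 in all libraries, and the part of neighbouring tissue and blood in the results was not tested.

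Choroid plexus transcripts were among the largest increases, and they varied widely between libraries of 1 age. All 15 genes of the list were called higher in adults, with a median log2 difference of 4.29, yet only 4 had adult values entirely above the juvenile values. The summed counts of the list were 67508, 43891, 239112, 127003 and 114539 in adults and 919.9, 892, 65322, 872 and 1006 in juveniles. Juvenile WT 3 therefore lay inside the adult range, and the other juveniles far below it. No gene of this or the next list was at 0 in all libraries. *Ttr*, the secreted thyroid hormone carrier and per kb the most abundant gene of the list, had 56507, 36895, 205832, 107339 and 97765 normalized counts in adults and 136, 93.4, 57648, 13.8 and 89.2 in juveniles. Its log2 difference was 8.41 (SE 1.64, limma adjusted p = 0.00134) and, without juvenile WT 3, 10.37 (limma adjusted p = 3.41e-07). *Kl*, the hormone receptor klotho, had 2853, 2038, 8071, 5056 and 4344 in adults and 390.3, 386, 1763, 369 and 399 in juveniles (log2 difference 2.94, SE 0.44, limma adjusted p = 1.96e-04), and differed by 3.37 without that library. *Folr1*, the folate receptor, differed by 4.24 and 5.13, *Otx2* by 5.09 and 6.05, and *Kcnj13*, of which 49.1% of the exonic length overlaps *Gigyf2* on the opposite strand, by 4.82 and 5.66. Without juvenile WT 3 all 15 were called again, with a median of 5.30, and with log2 *Ttr* as a covariate 0 were. How much choroid plexus each dissection held, and its part in other results, was not tested.

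**Figure D4:**
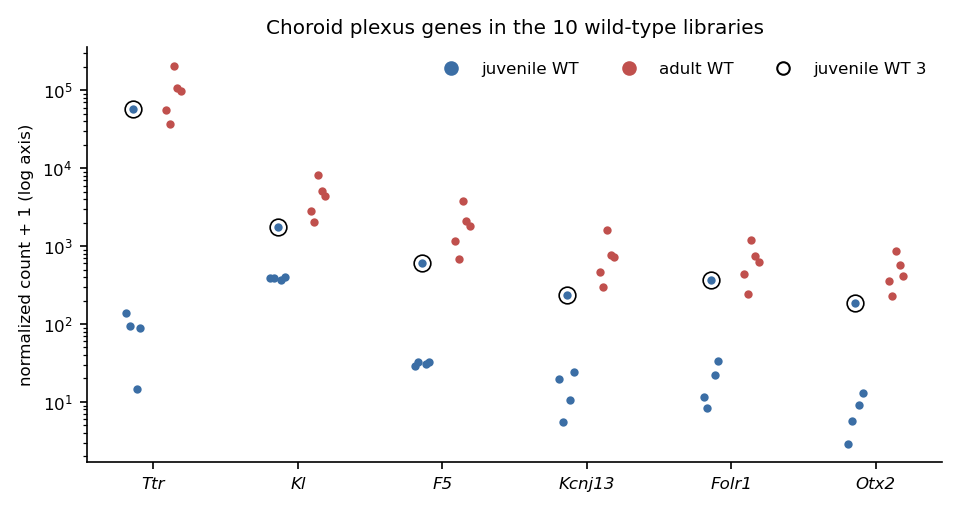
Normalized count + 1, on a log axis, of 6 choroid plexus genes in the juvenile (blue) and adult (red) WT libraries, with juvenile WT 3 circled. Juvenile WT 3 lies near the adult libraries for each gene. For *Ttr* it lies at 57648, while the other juveniles lie at 13.8 to 136 for that gene.

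Leptomeningeal fibroblast genes, of the membranes that cover the brain, moved partly with choroid plexus. Of 14 genes tested of 15 listed 9 were called higher and 3 lower (median 0.75), and 0 and 2 with the *Ttr* covariate. The list summed to 29640, 19836, 35585, 34477 and 28850 normalized counts in adults and 12780, 10083, 18129, 10541 and 19732 in juveniles. *Ptgds*, a prostaglandin synthase and per kb its most abundant gene, had 20117, 13113, 17351, 21137 and 15975 in adults and 6049, 3895, 7590, 4198 and 10593 in juveniles. All adults were above all juveniles (log2 difference 1.52, SE 0.23, limma adjusted p = 2.44e-04), and the difference was 1.05 and not called with the covariate. Of the defining genes *Lum* was called higher (0.72; not with the covariate), and *Dcn* (0.23) and *Slc6a13* (0.13) were not. *Igf2*, a growth factor of both tissues, had 3631, 2929, 9275, 6200 and 5746 in adults and 2262, 2029, 4426, 1979 and 3208 in juveniles, and the order of its values followed *Ttr* in adults. It was called higher (log2 difference 0.95, SE 0.29, limma adjusted p = 0.0201), but the difference with the covariate was −0.050. Its call was also lost without the trend and without juvenile WT 4, and 64.5% of its exonic length is shared with *Gm49394* on the same strand.

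Of 16 genes of the imprinted growth network, which also holds *Igf2*, 7 were called higher and 5 lower (median 0.099), and 2 and 0 with the covariate. *Meg3*, per kb its most abundant gene, fell by 0.12 and *Slc38a4* by 0.67, *Gatm* rose by 0.61, *Mest*, of which 23.1% lies opposite *Copg2*, by 0.48 and *Grb10* by 0.36, *H19* and *Ndn* fell by 1.99 and 0.23, and *Dlk1* was not called (0.32). *H19* was at single-digit or low 2-digit counts. *Mest*, *Grb10*, *H19*, *Ndn*, *Meg3* and *Slc38a4* lost their calls with the covariate, *H19* also with a pseudocount of 0.1, and *Meg3* also without the trend of limma and without each of 6 libraries in turn. Without the trend 3 genes were called higher, and 4 without adult WT 5, while among genes with a mean of at least 100 alone 3 were called lower.

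Genes for the use of ketone bodies, a fuel of the suckling brain, moved both ways. Of 15 genes of ketone body and monocarboxylate metabolism 6 were called lower and 5 higher (median −0.053), and 3 and 0 with the covariate. *Oxct1*, the enzyme that activates acetoacetate, had 8246, 8726, 8197, 8349 and 8465 normalized counts in adults and 13441, 13359, 15110, 14213 and 14352 in juveniles. The ages were clearly apart (log2 difference −0.75, SE 0.036, limma adjusted p = 2.45e-08). *Bdh1*, which oxidizes hydroxybutyrate, had 1494, 1530, 1493, 1482 and 1356 in adults and 2427, 2185, 2737, 2440 and 2298 in juveniles (log2 difference −0.71, SE 0.057, limma adjusted p = 1.27e-06). *Slc16a1*, the transporter MCT1, fell by 0.67, and *Pdk4*, which restrains glucose oxidation, and *Bdh2* rose by 0.75 and 0.82. The calls of *Slc16a1*, *Pdk4* and *Bdh2* were lost with the covariate.

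Of 85 nuclear-encoded subunits of oxidative phosphorylation 38 were called lower and 13 higher, with a median of −0.072, and 17 and 4 with the covariate. *Uqcr11*, *Cox7a2* and *Cox7b*, small subunits of complexes III and IV, fell by 0.58, 0.57 and 0.48. *Cox6b2* and *Cox8b*, isoforms at low counts, rose by 1.57 and 3.43, and *Ndufb4* by 0.53, while *Cox8a*, per kb the most abundant, fell by 0.11. *Cox6b2*, *Cox8b* and *Cox8a* were not called with the covariate, and *Cox8a* also not with quantile normalization, without the trend of limma and without each of 4 libraries in turn. Without juvenile WT 5, 8 of the 85 were called higher. Of the 13 protein-coding genes of the mitochondrial genome, grouped after their values were seen, 9 were called higher and 0 lower, with a median of 0.51, and 8 and 0 with the covariate. Called higher were 7 without juvenile WT 3, juvenile WT 5 or adult WT 5 and without the trend of limma. Mitochondrially encoded RNA made up 5.85%, 5.95%, 5.85%, 5.80% and 6.56% of the summed counts in adults and 4.66%, 4.81%, 4.20%, 4.43% and 4.27% in juveniles. The ages did not overlap, at 6.00% ± 0.317 and 4.47% ± 0.258 (SD, n = 5 each). *mt-Co1* had 676924, 675052, 650206, 659881 and 737489 in adults and 528092, 537866, 482830, 515257 and 495988 in juveniles (log2 difference 0.41, SE 0.041, limma adjusted p = 8.93e-06), and its call was lost with quantile normalization, which sets the largest value of every library equal. *mt-Nd2* and *mt-Nd6* rose by 0.87 and 0.82, and the ribosomal RNAs *mt-Rnr1* and *mt-Rnr2* were not called (−0.15 and −0.089).

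Cytosolic ribosomal proteins rose more often than they fell, by small amounts. Of 81 genes tested of 82 listed 41 were called higher and 13 lower (median 0.11), and 23 and 9 with the covariate. *Rps24* had 5323, 5509, 5552, 5052 and 5552 normalized counts in adults and 3928, 3831, 3627, 3647 and 3532 in juveniles, without overlap (log2 difference 0.54, SE 0.039, limma adjusted p = 5.64e-07). *Rpl13a* and *Rpl24* rose by 0.65 and 0.47, and *Rpl10* and *Rpl5* fell by 1.27 and 0.43, as did *Rpl7l1* by 0.34. *Rplp1*, per kb the most abundant, rose by 0.26, though not with the covariate. *Rpl13a* shares 35.4% of its exonic length with *Gm45713* and *Rpl24* 47.0% with *Gm28037*. Ribosomal protein genes have many near-identical pseudogenes, so these values are uncertain.

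Of 35 genes of the BAF complex and ADNP partners 11 were called higher and 8 lower (31.4% and 22.9%, beside 19.7% and 19.9% of all genes, median −0.042), and 6 and 0 with the covariate. With quantile normalization, and also without adult WT 2, 5 were called lower. *Arid1a* rose by 0.25, *Smarcc2* by 0.15, *Bcl7b* by 0.42 and *Bcl7c* by 0.59, *Brd7* fell by 0.15, and the heterochromatin proteins *Cbx3* and *Cbx1* fell by 0.23 and 0.18, these 3 not called with the covariate, and *Brd7* also not in a single fit of all 20 libraries and without each of 4 libraries in turn. Of 14 DNA methylation genes tested of 15 listed 7 were called lower and 2 higher (median −0.086), and 5 and 1 with the covariate. Leaving out adult WT 2, adult WT 3 or juvenile WT 4 gave 1 higher. *Dnmt3a*, the methyltransferase of postnatal neurons, had 3332, 3233, 3357, 3153 and 3265 normalized counts in adults and 4734, 4744, 4871, 6235 and 5048 in juveniles. Juvenile replicate 4 was the highest and all juveniles exceeded all adults (log2 difference −0.64, SE 0.065, limma adjusted p = 9.53e-06). *Tet1*, which oxidizes methylcytosine, had 436, 473, 536, 559 and 670.4 in adults and 1104, 1126, 1223, 1220 and 1059 in juveniles (log2 difference −1.11, SE 0.098, limma adjusted p = 2.85e-06). *Tdg* and *Uhrf1* fell by 0.70 and 0.90. *Mbd3* rose by 0.11, though not with the covariate or without each of 3 libraries in turn.

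Single genes were also ranked by the size of their change over all genes tested, members of the lists included. Of the genes called, 4121 had a mean of at least 100 and no overlap between the ages. Among these the 10 largest increases were *Mfrp* (6.31), *Prr32* (5.53), *Ppp1ccb* (5.23), *Otx2*, *F5* (4.86), *Kcnj13*, *Rbm47* (3.92), *Wdr86* (3.72), *Xdh* and *Igfn1* (3.14). In 8 of the 10, all but *Ppp1ccb* and *Xdh*, juvenile WT 3 was at least 2 times every other juvenile. Apart from *Otx2* and *Kcnj13*, given above, the differences of these genes are shown with that library only. *Ppp1ccb* is a processed copy of another gene, so its value is uncertain, and *Mfrp* shares 37.9% of its exonic length with *C1qtnf5*. Leaving out genes in which juvenile WT 3 stood apart in this way, a rule added after seeing the data, brought up other increases. *Il33* (ENSMUSG00000024810, chromosome 19 of GRCm38, 29925114 to 29960718 on the plus strand), a nuclear cytokine that oligodendrocytes and astrocytes express, had 1622, 1697, 1437, 1689 and 1568 normalized counts in adults and 344, 319.5, 289, 332 and 334 in juveniles. The spread within each age was small beside the difference (log2 difference 2.30, SE 0.062, limma adjusted p = 3.42e-10). *Xdh*, xanthine dehydrogenase of purine breakdown, had 635, 776, 469.9, 454 and 434 in adults and 54.9, 41.0, 56.0, 33.4 and 41.7 in juveniles (log2 difference 3.57, SE 0.18, limma adjusted p = 3.62e-08). *Fmo2*, a flavin monooxygenase, rose by 2.95 (SE 0.37, limma adjusted p = 5.48e-05), and *Chdh*, choline dehydrogenase, by 2.11 (SE 0.19, limma adjusted p = 4.27e-06). Also in this group were *Rdh5* (2.05, 25.6% shared with *Bloc1s1*), though juvenile WT 3 was also its highest juvenile at 1.80 times the next, *Gm21984* (2.31, 74.5% shared with *Sez6l2*) and the pseudogene *Rpl36a-ps2* (2.92), whose call 9 of the alternatives ended. *Mfrp*, *Prr32*, *Ppp1ccb*, *Otx2*, *F5*, *Kcnj13*, *Wdr86*, *Igfn1* and *Rdh5* lost their calls with the *Ttr* covariate, while *Il33*, *Xdh*, *Fmo2*, *Chdh* and *Rbm47* kept them.

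The largest decreases were of genes of several kinds. *9630013A20Rik*, an antisense transcript, had 47.8, 68.1, 71.9, 56.7 and 57.9 normalized counts in adults and 705, 603, 731, 594 and 698 in juveniles. Each juvenile value was more than 5 times each adult value (log2 difference −3.45, SE 0.11, limma adjusted p = 1.56e-09). *Rab7b*, a small GTPase of late endosomes, fell by 2.91 (SE 0.27, limma adjusted p = 4.93e-06) and *Adamts18*, a matrix protease, by 2.55 (SE 0.14, limma adjusted p = 5.37e-08). The unnamed models *Gm37376* (−5.90), which lies wholly on the strand opposite *Malat1*, *Gm47283* (−2.63), *Gm21887* (−2.36) and *Gm37111* (−2.07) were in the same group, and *Igfbpl1*, *Draxin* and *Enpp6* complete it. *Gm37376* was not called with the *Ttr* covariate. By summed counts rather than ratio, the differences of the means, adult minus juvenile, came to 2055561 over the genes called higher and −2072788 over the genes called lower. The largest gains were of *mt-Co1*, *mt-Cytb* (0.51), *mt-Nd4* (0.52), *Gm28661* (0.56), a nuclear copy of mitochondrial sequence whose value is uncertain, and *Ttr*. Among the largest losses were those of *Mbp*, *Tuba1a* (−0.80, 26.2% shared with *Gm49450*), *Cpe* (−0.43) and *Slc1a2*.

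The same comparison in the libraries labelled Adnp-HT, which shares no library with the WT comparison, shared most of the calls. In these, 6977 genes (39.7%) were called, 3483 higher and 3494 lower. Of the 6956 genes called in WT 97.9% had the same sign, and 5187 were called in the same direction in both, which is 74.6% of the WT calls and 74.3% of the others. Only 5 genes were called in opposite directions. Across genes the log2 differences of the 2 sets of libraries had a correlation of 0.84, where genes are not independent. Some lists had other counts of calls, with 15 scaffold and CaMKII genes called higher where WT had 6, 13 microglial genes where WT had 6, 3 collagen genes where WT had 9 and 6 nuclear-encoded subunits of oxidative phosphorylation where WT had 13, and 5 blood genes called lower where WT had 0. *Gpr17* differed by −1.84, *Igfbpl1* by −2.72, *Il33* by 2.54, *Hapln2* by 2.40 and *Fos* by 1.24 between the ages of these libraries. All 15 choroid plexus genes were called higher, with a median of 3.71. *Ttr* had 131071, 70989, 62840, 20261 and 6087 in adults and 192, 40.0, 760.3, 2463 and 43.4 in juveniles, and again varied within each age.

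Whether the age difference itself differed between the labelled genotypes was tested by limma as an interaction over the 20 libraries. For 0 genes (0%) did this reach an adjusted p under 0.05, the smallest being 0.291, while 1140 genes had an unadjusted p under 0.05, where about 878 are expected with no difference. The gene with the smallest p was *Asb2*, a ubiquitin ligase subunit. Its counts were 64.1, 59.4, 63.3, 59.8 and 55.0 in adult WT, 89.0, 71.8, 71.7, 78.7 and 81.5 in juvenile WT, 94.9, 108, 89.3, 100.9 and 95.9 in adult and 85.9, 70.0, 74.1, 82.3 and 81.8 in juvenile libraries labelled Adnp-HT. Neither set of libraries overlapped between the ages, with a log2 difference of −0.37 in WT and 0.31 in libraries labelled Adnp-HT (limma interaction, unadjusted p = 7.99e-05), and no other gene was apart in opposite directions in this way. The WT call of *Asb2* was lost without juvenile WT 1 and with the covariate. Next by p were *Bcl11b*, a transcription factor of granule cells, *Plxna4*, a semaphorin receptor, *Kcng2*, a potassium channel subunit, and *Ncdn*, neurochondrin. They differed with age by −0.16, −0.11, −0.085 and 0.13 in WT and by 0.12, 0.16, 0.40 and 0.33 in the others. With the covariate *Bcl11b*, *Plxna4* and *Ncdn* were not called in WT, and *Plxna4* also not with quantile normalization, without the trend of limma and without each of 5 libraries in turn.

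**Figure D5:**
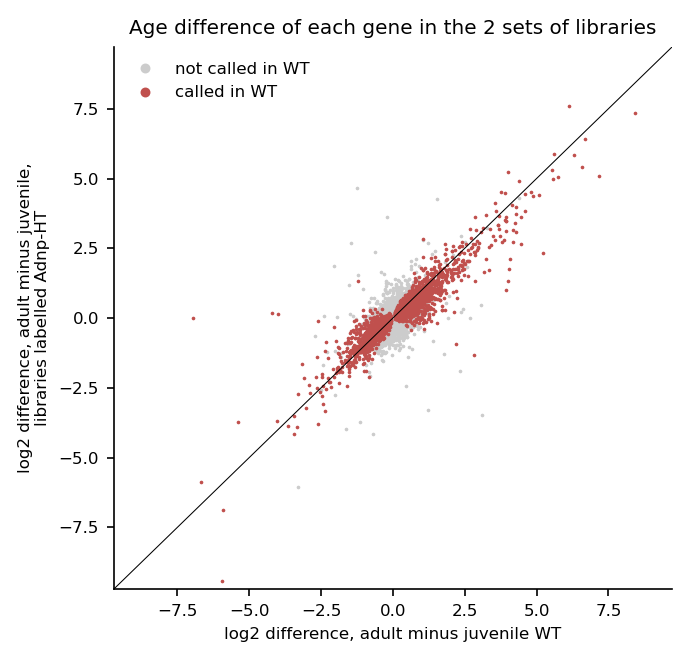
Log2 difference with age in libraries labelled Adnp-HT against that in WT, each point a gene, with the 6956 genes called in WT in red and the others in grey, and a line where both are equal. All genes together have a correlation of 0.84.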

How the data were processed

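RNA-Seq of hippocampus was analysed from the normalized counts of 10 WT libraries, 5 adult and 5 juvenile, and, for a comparison that shares no library with these, of 10 libraries labelled Adnp-HT. The signal values are normalized counts that the authors made with Salmon 1.1.0 (GC bias correction, GRCm38), tximport and the size factors of DESeq2 1.30.1 in R 3.5.3, and deposited for 19258 genes. Libraries were made with the TruSeq RNA Sample Prep Kit v2, which does not mark the strand, so a gene and an overlap on the opposite strand cannot be told apart. Raw counts were not used, so depth per library and its precision are not known. Genes were matched to GENCODE vM21 by Ensembl gene ID for identity, position, exonic length and overlaps (19241 of 19258 matched).

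Values were transformed to log2(value + 1), genes whose mean over the WT libraries reached 10 were kept, and ages were compared with limma 3.58.1 in R 4.3.3 (moderated t-test with mean-variance trend, Benjamini-Hochberg adjustment, adjusted p under 0.05 called). The interaction of age and labelled genotype was fitted over 20 libraries. Tables and figures were made in Python 3.11.15 with pandas 2.3.3 and matplotlib 3.10.9. The code was tested on simulated data. Members of 36 gene lists were counted by call and median, with no test of a list. Lists and genes were chosen with earlier results on these data known. Genes were named by rule from the 10 largest increases and decreases with a mean of at least 100 and no overlap, the 5 largest gains and losses in counts, up to 3 called genes in each direction and the most abundant gene of each list, a set of 61 genes fixed beforehand and the 5 smallest interaction p, and further list members are given for context, while some genes that the rules pick are not printed. Alternatives were pseudocounts of 0.1 and 5, other filters, quantile normalization, rescaling, a replicate block, a single fit of 20 libraries, no trend, each library left out and log2 *Ttr* as a covariate. Motif letters were searched in RefSeq promoters of GRCm38.p6 without a test.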

Additional observations from a re-analysis of the deposited data

Results flagged for a closer look

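In each group of 5 libraries the highest or lowest value was singled out when its gap to the nearest other value was more than 0.71 of the range of the group. This was applied to the sums of the 36 lists and to the 326 genes described, 724 groups in all, and 58 were singled out. Chance gives about 1 in 20 groups, and many genes here move together. No explanation was tested.

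Juvenile WT 3 was far above the other juveniles in the choroid plexus sum (65322) and in *Ttr* (57648), *Kl* (1763), *F5* (602.4), *Mfrp* (529.1), *Col8a1* (389.1), *Folr1* (364.7), *Col8a2* (291), *Kcnj13* (236.9), *Otx2* (184.1), *Rdh5* (182), *Wdr86* (175.7), *Col4a3* (104), *Prr32* (82.07) and *Rbm47* (53.05). It was also highest in *Rpl10* (2209) and lowest in *Smarcc2* (8689).

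Adult WT 3 was highest in the blood sum (27484) and in *Hbb-bs* (9941), *Hba-a2* (8223), *Hba-a1* (6786) and *Alas2* (410.4), and also in *Clock* (3612), *Cacng8* (3338) and *Igfn1* (360.6), and lowest in *Grik1* (300). Adult WT 5 was highest in *mt-Cytb* (263806), *mt-Nd4* (254533), *mt-Nd2* (144266) and *Gm37376* (86.7), and lowest in *Bdh1* (1356) and *Enpp6* (197.3). Adult WT 1 was highest in the sum of precursor and newly formed oligodendrocyte genes (41647), *Apod* (5233) and *Fosb* (461.2), and lowest in the sum of glutamate receptor genes (160637), *Gria2* (27395) and *Gap43* (3202).

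Juvenile WT 4 was highest in the sum of perineuronal net genes (64716), *Thra* (34951), *Stmn2* (12849), *Dnmt3a* (6235) and *Hapln1* (1875), and lowest in *Shisa7* (7590), *Mbd3* (2349), *Epha10* (1154) and *Klk6* (1.824). Juvenile WT 2 was highest in *mt-Rnr2* (134950), and lowest in *Tubb3* (9318), *Thrb* (976.8) and *Acan* (232.4). The rest were single values: *Camk2b* lowest in juvenile WT 5 (40015), *Npas4* highest in juvenile WT 5 (467), *Ugt8a* highest in juvenile WT 1 (6092), *Cenpf* (138.7) and *Mcm2* (186.1) highest and *Mki67* (93.57) lowest in adult WT 4, and *Slc6a13* lowest in adult WT 2 (154.2).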

How the results depend on the processing

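The number of genes called between adult and juvenile WT, 6956, stayed between 6078 and 7224 under pseudocounts of 0.1 and 5, no filter, a mean of at least 100, quantile normalization, rescaling within the 10 WT libraries, a single fit of all 20 libraries and limma without its trend. Leaving out each library in turn gave 6203 to 6756 calls, 3064 to 3381 higher and 3112 to 3392 lower. In each of these settings 0 to 3 of the calls changed sign. Among 326 genes described, of which 263 were called, quantile normalization kept the direction and call of 312, no filter of 326 and the fit without the trend of 317. At a mean of at least 100, 12955 genes were tested and 6078 called, and with no filter 19256 were tested and 7018 called. Changes of over 2-fold at a mean of at least 100 numbered 154 higher and 90 lower, since fewer genes were tested. Quantile normalization turned *Gria1* to 0.093 and *Camk2a* to −0.067, and the cause was not tested.

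With log2 *Ttr* as a covariate, added after the data were seen, 2301 genes were called, 1052 higher and 1249 lower, with 152 higher by over 2-fold, and 69 of the calls changed sign. Of the genes described, 205 kept direction and call and most others kept only direction, while *Igf2* was at −0.0495, *Col8a1* at −0.11 and *Ttr* itself at −1.87e-15 by construction. Because *Ttr* went with age, this setting cannot tell age and choroid plexus apart.

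The same replicate numbers occur at both ages. With these numbers as a block 6501 genes were called in WT, 6443 among libraries labelled Adnp-HT and 0 in the interaction. Only replicate 3 correlated best with its own number across the ages (0.178), so nothing in the data showed that numbers pair libraries.

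In the libraries labelled Adnp-HT, 6977 calls stayed between 6240 and 6815 with single libraries left out and between 6443 and 7045 otherwise. The interaction had 0 calls in every setting except without juvenile WT 1, which gave 1. Leaving out a single library at a time gave 0 to 1. Depth could not be read from the normalized counts, so how far it limits genes at low counts is not known.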

Other observations

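Receptors of thyroid hormone, which times brain maturation, were outside the lists and were looked up after the values were seen. *Thrb* rose from 1038 ± 35.2 normalized counts in juvenile WT to 1328 ± 56.5 in adult WT libraries (SD, n = 5 each; log2 difference 0.35, SE 0.043, limma adjusted p = 3.90e-05). *Thra* fell by 0.26, from 31465 ± 1981 to 26206 ± 971, and *Dio2*, the deiodinase that activates the hormone, by 0.36, from 2600 ± 296 to 2018 ± 199.9. The ages did not overlap for any of the 3. Among growth factors *Igf1* fell by 0.61 while its receptor *Igf1r* rose by 0.25, and the receptor *Ntrk2* was not called (0.033).

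Single genes of growing neurites were looked up in the same way, without a list, so they do not show how such genes moved as a group. *Gap43* (−0.021) and *Stmn1* (0.16), of the list of immature neurons, were not called. *Marcksl1*, an actin regulator, went from 4679 ± 501 to 1959 ± 238 (SD, n = 5 each; log2 difference −1.26, SE 0.088, limma adjusted p = 4.66e-07), *Stmn2*, which destabilizes microtubules in growth cones, fell by 0.61 and *Tmsb10* by 0.79, all without overlap. *Cnr1*, the cannabinoid receptor of nerve endings, fell by 0.46 and the kinase *Camk4* by 0.63. *Itpr1*, a calcium release channel, and *Hcn2*, a pacemaker channel, rose by 0.44 and 0.31. Of neuropeptides *Penk* rose by 0.41 and *Chgb*, of dense-core vesicles, fell by 0.30, while *Cck* was not called (0.020). The Y-linked genes *Ddx3y*, *Uty*, *Kdm5d* and *Eif2s3y* had adult means of 1710 ± 89.6, 528 ± 23.5, 1170 ± 63.3 and 1389 ± 76.8 and juvenile means of 1836 ± 96.2, 599 ± 31.9, 1316 ± 82.8 and 1851 ± 92.0, and *Eif2s3y* fell by 0.41 (SE 0.049, limma adjusted p = 3.11e-05). With log2 *Ttr* as a covariate *Thra*, *Igf1*, *Igf1r* and *Itpr1* were not called.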
